A study of Mus musculus with 2 samples.

Results

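Group 2 innate lymphoid cells (ILC2) and regulatory T cells were examined in a single-cell transcriptome of epididymal fat, the visceral fat pad beside the testis, of male C57BL/6J wild-type mice. The cells were those with at least 2 of the genes Il1rl1, Gata3, Klrg1, Il2ra, Foxp3 and Ctla4 at 100 CPM or more, where CPM scales the reads of a gene to a fixed total per cell. The cells were thus chosen by their measured levels of these genes. They also had Ncr1, a natural killer (NK) cell receptor gene, and Trdc, the constant gene of the T cell receptor delta chain, under 50 CPM each. The summed level of C1qa, C1qb, Lum, Dpt, Cdh5, Clec9a and Cd79a, which mark macrophages, fibroblasts, endothelium, dendritic cells and B cells, was under 300 CPM. These limits left 217 of 10521 cells, or 2.06% (exact binomial 95% interval 1.80 to 2.35%). Of the 217 members, 126 had Trac, the T cell receptor alpha constant gene, or Foxp3 at 50 CPM or more and are called T members here, and 91 had neither and are called innate members. Foxp3 reached 50 CPM in 68 T members, called Foxp3+ T members, and the other 58 are called other T members.

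Mice had eaten a high-fat diet for 8 or 16 weeks or a standard diet for 16 weeks. Cell suspensions were made with Liberase, stained with hashtag antibodies that carry a DNA barcode, pooled, and run once on a BD Rhapsody device with TAS-Seq amplification, a protocol that amplifies cDNA captured on beads. The series compared the diets to study how macrophages and fibroblasts communicate when fat becomes fibrotic. The authors' hashtag calls separate 9 populations, but the labels do not say which diet a hashtag stands for, so no comparison of diets could be made, and each population is given as its own value. All cells came from 1 pooled library with no replicate: no test was possible, and every difference below is a description of this library.

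ILC2 are tissue-resident lymphocytes without an antigen receptor. They respond to the alarmin interleukin 33 through its receptor ST2, the product of Il1rl1, depend on the transcription factor GATA3, and secrete interleukins 5 and 13, which sustain eosinophils and alternatively activated macrophages in lean fat. Regulatory T cells of visceral fat are Foxp3+ CD4 T cells that also carry ST2, GATA3 and KLRG1, respond to interleukin 33 and restrain inflammation of the fat pad. The genes that mark both kinds of cell are thus largely shared, and the T cell receptor and Foxp3 tell them apart.

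The sequences upstream of 3 genes of this programme are shown because Gata3 is among the genes that define the cells and its product binds the letters GATA. Each line gives 250 bases before a transcription start from RefSeq, build GRCm38.p6, 5′ to 3′ on the strand of the gene. Capitals mark, on either strand, every GATA that has A or T before it and A or G after it. The distal start of Il1rl1 lies at the end of chr1:40429320-40429569 (plus strand) and the second start at the end of chr1:40439379-40439628 (plus strand). The Il5 window is chr11:53720544-53720793 (plus strand) and the Alox5 window is chr6:116461179-116461428 (minus strand).
Il1rl1 distal start: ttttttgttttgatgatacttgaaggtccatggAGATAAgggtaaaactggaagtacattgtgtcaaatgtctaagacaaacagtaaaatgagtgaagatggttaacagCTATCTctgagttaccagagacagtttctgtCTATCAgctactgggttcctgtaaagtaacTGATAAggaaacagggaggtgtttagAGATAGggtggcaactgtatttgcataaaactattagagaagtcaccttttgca
Il1rl1 second start: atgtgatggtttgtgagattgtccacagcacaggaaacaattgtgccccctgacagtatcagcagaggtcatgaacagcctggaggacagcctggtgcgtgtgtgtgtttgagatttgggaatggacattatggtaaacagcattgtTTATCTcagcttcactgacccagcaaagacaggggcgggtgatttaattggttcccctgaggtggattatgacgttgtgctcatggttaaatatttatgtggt
Il5: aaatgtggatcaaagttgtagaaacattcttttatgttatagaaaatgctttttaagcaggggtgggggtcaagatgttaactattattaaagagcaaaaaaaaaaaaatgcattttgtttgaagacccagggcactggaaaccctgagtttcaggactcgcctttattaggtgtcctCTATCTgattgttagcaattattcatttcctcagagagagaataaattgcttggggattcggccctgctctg
Alox5: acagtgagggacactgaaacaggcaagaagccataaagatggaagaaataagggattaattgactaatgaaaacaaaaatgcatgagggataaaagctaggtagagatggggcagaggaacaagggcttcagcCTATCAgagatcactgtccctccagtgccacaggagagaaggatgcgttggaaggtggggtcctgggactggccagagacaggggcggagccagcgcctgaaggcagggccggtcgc
The distal Il1rl1 window held 5 matches, which begin 217, 141, 110, 80 and 54 bases before the start, and the second window held 1, at 103 bases. Il5 had 1 match at 72 bases and Alox5 had 1 at 117 bases. At least 1 match occurred in 26.5% of the 32851 windows of this table, and 5 or more occurred in 14 windows (0.0426%). The windows of Gata3, Ctla4, Kit, Il17rb, Tnfrsf4 and Lmo4 held no match, and those of Foxp3 held 2 and 1. Csf2 and Il13 had 1 match each and Ccr2 had 2. The second Il1rl1 window also held 1 match to GTAAACA, the forkhead letters, which 3.17% of windows contain. A match describes letters only and shows no binding.

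The label was checked against genes other than the 6 of the rule, whose presence in the members the rule fixed. The names hold only in part: 25 of 91 innate members had Cd3d, Cd3e, Cd3g or Cd4 at 50 CPM or more, and 58 of 126 T members had no Foxp3 read. Of the 68 Foxp3+ T members, 50 also had Trac at 50 CPM or more. The classes are therefore called by the rule and not by a cell type. Mast cells also express Gata3 and Kit, and their markers Cpa3, Tpsb2, Cma1, Mcpt4 and Ms4a2 had no read in innate members. The other mast cell markers were found: beside Kit, Hdc, which encodes histidine decarboxylase, was at 27.5 CPM in 3 innate and 8.57 CPM in 4 T cells, with 86.7% of the innate reads in 1 cell. The B cell markers Cd79b and Pax5 had none either, and nor had Cd79a, which the rule itself limited. The 8 macrophage markers summed to 1025 CPM in innate members, 325 CPM in Foxp3+ and 437 CPM in other T members, against 9909 CPM in all kept cells. The rule limited C1qa and C1qb among them, so the lower sums in members were in part fixed by it. Lyz2 made up 875 CPM of the innate sum with 77.0% of it in 1 cell.

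Depth was alike among the lymphocytes. The median was 15323 reads per cell in innate members, 15998 in T members, 15921 in other alpha-beta T cells, 15652 in NK cells and 15205 in gamma-delta T cells. Innate members had a median of 1609 genes per cell and T members 1697.5. The hashtag with most counts was the authors' call in 217 of 217 members, with a median of 4884 hashtag counts, and no cell barcode occurred under 2 hashtags. Scrublet, a doublet caller, marked 233 of the kept cells (2.21%) and no member.

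The 6 genes that chose the cells are described first, without any test. Il1rl1 was at 1219 CPM in innate members, 1444 CPM in Foxp3+ T members and 716 CPM in other T members, and had a read in 72 of 91, 54 of 68 and 35 of 58 cells. Gata3 was at 601, 409 and 440 CPM in the same order of classes, and Klrg1, an inhibitory receptor, at 576, 1015 and 735 CPM. Il2ra, the high-affinity chain of the interleukin 2 receptor, was at 597 CPM in innate members, 1030 CPM in Foxp3+ and 550 CPM in other T members. The fifth gene, Ctla4, the checkpoint receptor that competes with CD28, was at 226 CPM in innate members, 1071 CPM in Foxp3+ and 816 CPM in other T members. Foxp3, which divides the classes, was at 749 CPM in Foxp3+ T members and had no read in innate or other T members. Fibroblasts are given beside the members. Il1rl1 was at 4.90 CPM in fibroblasts and had a read in 0.813% of them after thinning to 5000 reads. Among thinned innate and T members, 73.6% and 67.5% had a read. Members were chosen in part by Il1rl1, so this difference is no result. Median depth before thinning was 57719 reads in fibroblasts.

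**Figure D1:**
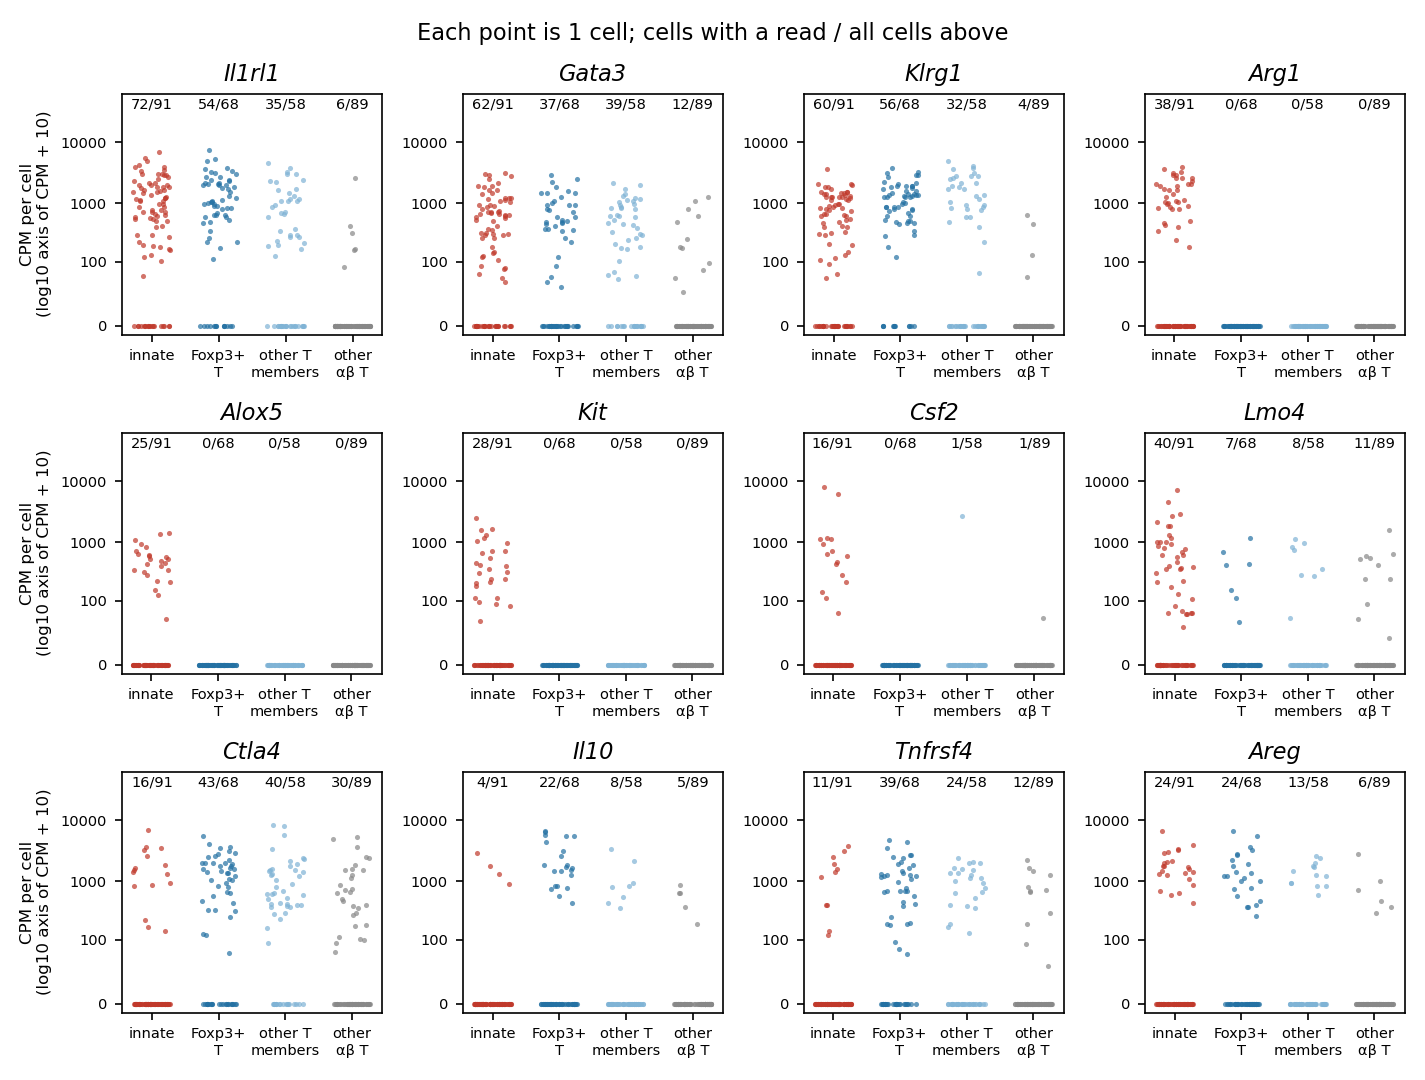
Levels in single cells for 12 genes, in CPM on a log10 axis of CPM + 10. Columns are innate members, Foxp3+ T members, other T members and other alpha-beta T cells of the 1 pooled library, and the numbers above give cells with a read over all cells. Arg1, Alox5 and Kit have points above 0 in innate members only among these 4 classes, whereas Il1rl1, Gata3 and Klrg1 do so in innate and T members alike.

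Members differed in how many of the rule's genes they carried. Exactly 2 of the 6 genes reached 100 CPM in 74 members, 3 in 50, 4 in 52, 5 in 30 and all 6 in 11. The second-highest gene was at 107, 112 and 124 CPM in the 3 members nearest the limit, and at 97.9, 97.1 and 92.9 CPM in the 3 nearest cells outside it. Another 375 cells had 1 of the 6 genes and met the other limits. Among innate members, Il1rl1, Gata3, Klrg1 and Il2ra together formed the most frequent pattern (19 cells), followed by Il1rl1 with Il2ra (12 cells) and Il1rl1 with Klrg1 and Il2ra (10 cells). Il1rl1 and Klrg1 both reached 100 CPM in 44 of 91 innate members, 48 of 68 Foxp3+ T members and 25 of 58 other T members.

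Members made up between 0.408% and 4.37% of a hashtag population. Their share was 4.37% (36 of 823 cells) in population A0301, 3.01% (29 of 964) in A0302 and 2.64% (28 of 1059) in A0303. It was 3.003% (33 of 1099) in A0304, 2.62% (32 of 1222) in A0305 and 2.69% (33 of 1226) in A0307. It was 0.974% (14 of 1438) in A0308, 0.408% (6 of 1472) in A0309 and 0.493% (6 of 1218) in A0310. Among all lymphocytes counted here (members, other alpha-beta T, NK and gamma-delta T cells), members made up 57.1, 52.7, 52.8, 53.2, 50.8, 60.0, 23.7, 19.4 and 14.0% in the same order of populations. Other properties differed between populations too: median reads per kept cell ran from 28664 in A0301 to 51176 in A0310, and the share of cells over the mitochondrial limit from 5.40% in A0301 to 20.8% in A0310. Their part in the shares was not tested.

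**Figure D2:**
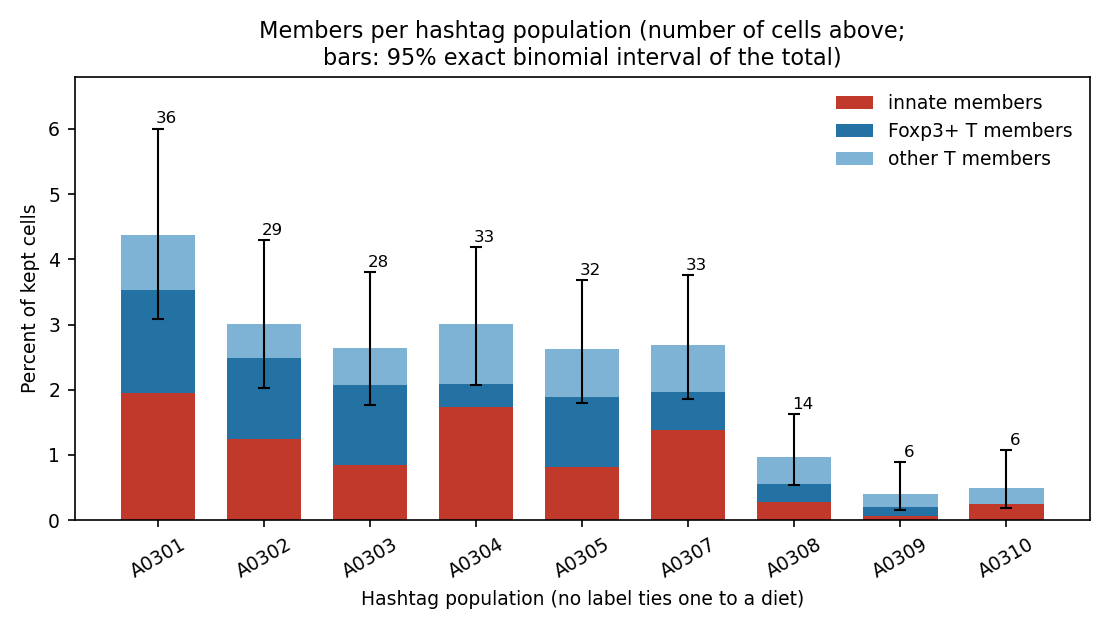
Members as a percent of the kept cells of each of the 9 hashtag populations, stacked as innate, Foxp3+ T and other T members, with the number of members above. Error bars are exact binomial 95% intervals of the total and cover counting error only. The share is 4.37% in A0301 and 0.408% in A0309, and the diet of a population is not given.

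The make-up of the members is given next. Innate members numbered 16, 12, 9, 19, 10, 17, 4, 1 and 3 in the 9 populations from A0301 to A0310. Foxp3+ T members numbered 13, 12, 13, 4, 13, 7, 4, 2 and 0, and other T members 7, 5, 6, 10, 9, 9, 6, 3 and 3. For the 0 of 1218 Foxp3+ T members in A0310 the exact upper limit is 0.302% of its cells. As a share of T members and other alpha-beta T cells together, Foxp3+ T members were 59.1, 57.1, 65.0, 18.2, 38.2, 41.2, 11.1, 11.8 and 0%, with 17 to 36 such cells in a population. T members needed Trac or Foxp3 at 50 CPM, and other alpha-beta T cells both Trac and Cd3e. The shares are therefore not of all alpha-beta T cells. The order of the Foxp3+ share thus differed from that of all members, with 18.2% in A0304 beside 19 innate members, the highest innate number of the 9.

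The genes of the rule also differed between populations. Il1rl1 was at 1005, 1701, 1279, 1087, 1245, 1406, 385, 0 and 12.9 CPM in the summed members of the 9 populations, and had a read in 24, 27, 21, 26, 27, 27, 8, 0 and 1 of their cells. Gata3 stayed between 347 CPM in A0308 and 692 CPM in A0303. Ctla4 ran from 377 CPM in A0304 to 968 CPM in A0310. The members of A0309 and A0310 thus met the rule with few or no Il1rl1 reads. Ccl5, a chemokine of cytotoxic lymphocytes, was at 6289 CPM in the 6 members of A0309 and 5704 CPM in the 6 of A0310, against 0 CPM in the members of A0302, A0303, A0305 and A0307; it was at 4816 CPM in A0308, 1417 CPM in A0301 and 317 CPM in A0304.

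Innate members were then set beside T members over all genes. Among 7787 genes at 20 CPM or more in 1 of both classes, 1182 were 2-fold or more higher in innate members (15.2%) and 1139 were 2-fold or more lower (14.6%); ratios are of CPM + 1. The median ratio over all these genes was 1.01. A gene list is read beside these shares. The 6 genes of the rule and Trac chose the classes, so the counts of lists leave them out.

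Several genes known from ILC2 had reads in innate members and none in T members. Of the 10 ILC2 genes compared, 5 were 2-fold higher in innate members and none was lower, with a median ratio of 4.58. Arg1 encodes arginase 1, which lets ILC2 use arginine, and was at 891 CPM in innate members with reads in 38 of 91 cells (41.8%, exact interval 31.5 to 52.6%), against no read in 126 T members. With a floor of 3 reads over all T members, its level was at least 693-fold higher. Kit, a cytokine receptor gene of innate lymphocytes and mast cells, was at 204 CPM in 28 innate cells and had no read in T members, at least 159-fold higher. Il17rb, the interleukin 25 receptor, was at 91.8 CPM in 9 innate cells and had no T read, at least 71.4-fold higher, with 41.3% of its reads in 1 cell. Lpcat2, an enzyme of platelet-activating factor synthesis, was at 251 CPM in innate and 33.4 CPM in T members (ratio 7.34), and Hs3st1, a heparan sulfate sulfotransferase gene, at 65.5 and 1.29 CPM. In fibroblasts thinned to 5000 reads Arg1 was in 0.0508% of cells, Kit in 0.254% and Il17rb in 0.102%, against 39.6, 24.2 and 7.69% of thinned innate members. Hs3st1 was in 10.99% of thinned innate members, no thinned T member and 9.29% of thinned fibroblasts. The transcription factors Rora (748 CPM in innate and 773 CPM in T members), Id2 (1139 and 854 CPM) and Gfi1 (33.7 and 26.1 CPM) differed less than 2-fold.

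Arg1 was found in innate members of 6 populations. It was at 881, 858, 521, 878, 1994 and 796 CPM in the innate members of A0301, A0302, A0303, A0304, A0305 and A0307, with reads in 5, 5, 4, 10, 5 and 9 cells. The T members of all 9 populations had no Arg1 read. The 4, 1 and 3 innate members of A0308, A0309 and A0310 had none either, a number of cells too small to place a share. Kit varied more, with 14.6, 90.98, 107, 256, 34.3 and 565 CPM in the innate members of the first 6 populations and reads in 1, 4, 2, 11, 2 and 6 cells.

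**Figure D3:**
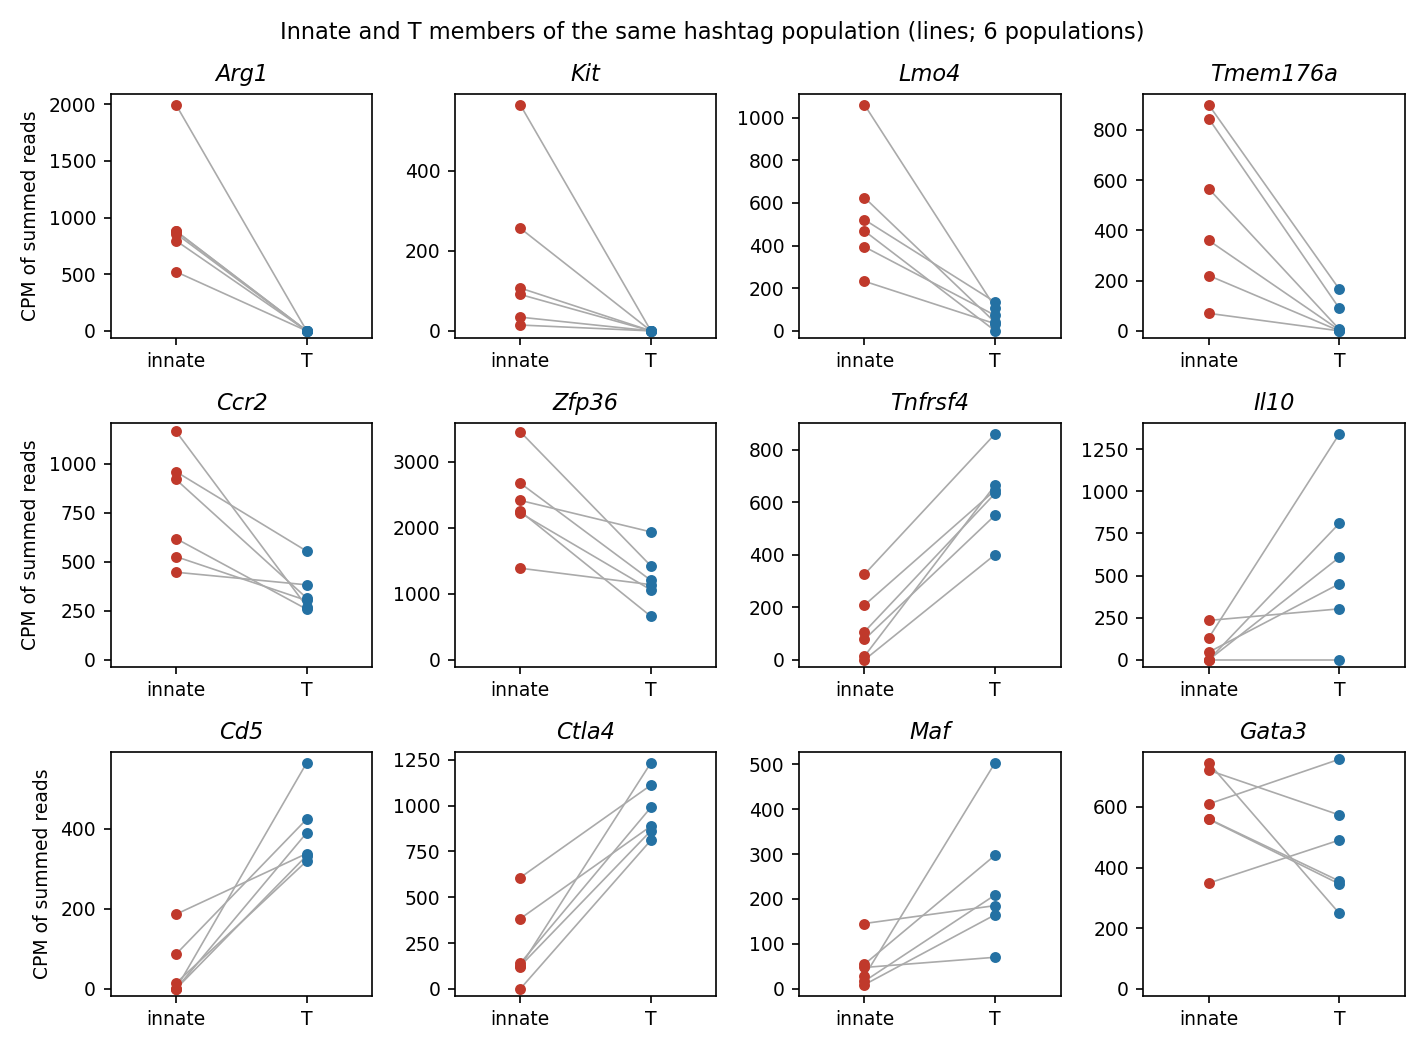
Level in CPM of summed reads for 12 genes in the innate members (left) and the T members (right) of the same hashtag population, joined by lines, for the 6 populations with at least 5 cells in each class. Arg1 is 0 in T members of all 6, Lmo4 and Ccr2 are higher in innate members of each, and Ctla4 and Tnfrsf4 are lower in innate members of each.

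Most secreted products compared were also higher in innate members. Of 14 effector products compared, 10 were 2-fold higher in innate members and 1 was lower, with a median ratio of 5.24. Csf2 encodes the growth factor GM-CSF and was at 388 CPM in 16 innate cells, against 43.3 CPM in a single T cell. The highest innate cell was at 8204 CPM, beside a median of 615 CPM among innate cells with a Csf2 read. Il5, the eosinophil growth factor, was at 106 CPM in 11 innate cells and 11.6 CPM in 4 T cells, but 61.9% of the innate reads came from 1 cell. Il13 was found in 2 innate cells and in no T member. Calca, which encodes the neuropeptide CGRP, was at 166 CPM in 8 innate cells and 24.9 CPM in 2 T cells, and the chemokine gene Ccl1 at 141 CPM in 8 and 11.1 CPM in 1. Lif and Tnfsf11, a cytokine of the interleukin 6 family and the RANK ligand, were at 55.7 and 159 CPM in innate members and 2.57 and 69.8 CPM in T members. Il2, Tnf and Osm were the other 3 that were higher. Any of Il5, Il13, Il4 or Csf2 had a read in 25 of 91 innate members (27.5%, exact interval 18.6 to 37.8%), against 3 of 68 Foxp3+ T members (4.41%, 0.919 to 12.4%) and 2 of 58 other T members (3.45%, 0.420 to 11.9%). Areg, the epidermal growth factor family ligand amphiregulin, was at 623 CPM in 24 innate cells and 472 CPM in 37 T cells, a ratio of 1.32 that was above 1 in 3 of 6 populations.

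Il10, the anti-inflammatory cytokine, was the one product on the side of T members. It was at 62.4 CPM in 4 innate cells and 567 CPM in 30 T cells, 8.96-fold lower in innate members. Per population Il10 was at 234, 130, 0, 0, 45.7 and 0 CPM in innate members of A0301, A0302, A0303, A0304, A0305 and A0307, against 302.6, 1341, 810, 0, 451 and 608 CPM in their T members. It was lower in innate members of 5 of 6 populations and had no read in either class of A0304.

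Genes of lipid mediators and their receptors were higher in innate members for 6 of 16 and lower for 1, with a median ratio of 1.75. Alox5, the 5-lipoxygenase that begins leukotriene synthesis, was at 177 CPM in 25 innate cells and had no read in T members, at least 138-fold higher. The prostacyclin receptor gene Ptgir was at 86.3 CPM in 14 innate and 6.86 CPM in 3 T cells. Ptger2, Hpgds and Alox5ap were also higher, at 20.2 to 35.5 CPM in innate members, but all reads of Alox5ap in them came from 1 cell of A0303. Ramp1, a subunit of the CGRP receptor, was alike at 268 and 273 CPM.

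Genes of chemokine receptors and tissue residency split both ways, with 5 of 21 higher and 5 lower, beside 15.2% and 14.6% of all genes. With the level taken as the mean over the 6 populations, 2 of 18 were higher (Ccr2 and Ccr8) and 5 lower. By these means 16.8% of all genes were higher and 15.9% lower. Ccr2, which guides cells to CCL2, was at 716 CPM in 59 innate cells and 301.6 CPM in 61 T cells, a ratio of 2.37. It was higher in innate members of 6 of 6 populations, at 527, 1165, 447, 619, 960 and 920 CPM in A0301, A0302, A0303, A0304, A0305 and A0307, against 302.6, 272, 382, 258, 554 and 315.2 CPM in T members. Ccr8, the CCL1 receptor, was at 92.4 CPM in 17 innate cells and 4.71 CPM in 6 T cells. Cxcr3, the receptor of interferon-induced chemokines, had no read in innate members and was at 30.0 CPM in 6 T cells. By the means over the 6 populations Cxcr3 was at 12.0 CPM in T members, under the limit of 20 CPM, with reads in 2 populations. S1pr1, the receptor for tissue exit, was at 9.79 CPM in innate and 68.1 CPM in T members.

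Outside the lists, 132 genes were higher in innate members, at 50 CPM or more and with a read in 20% of cells, and the 15 of largest ratio were Slc7a8, Trgc4, Trgc1, Serpinb1a, Plscr1, Filip1l, Rnf128, Pdlim1, Tmem176a, Plxdc2, Lmo4, Sema4a, Fut8, Zbtb20 and Prnp. Slc7a8, an amino acid transporter gene, was at 168 CPM in 29 innate cells, with 1 T cell showing reads. Rnf128, an E3 ubiquitin ligase known as GRAIL, was at 518 CPM in 28 innate cells and 47.1 CPM in 8 T cells (ratio 10.8). Lmo4, a LIM-only transcriptional cofactor, was at 515 CPM in 40 innate cells (44.0%, exact interval 33.6 to 54.8%) and 58.3 CPM in 15 T cells (11.9%, 6.82 to 18.9%). Per population Lmo4 was at 1060, 394, 521, 233, 469 and 625 CPM in innate members of A0301, A0302, A0303, A0304, A0305 and A0307, against 109, 72.7, 135, 33.4, 0 and 39.4 CPM in T members. Tmem176a, a transmembrane protein gene, was at 486 CPM in innate and 45.8 CPM in T members. With all cells thinned to 5000 reads, Lmo4 had a read in 36.3% of innate and 9.52% of T members and 15.7% of fibroblasts, and Tmem176a in 41.8, 6.35 and 10.4%.

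Trgc1 and Trgc4, constant genes of the T cell receptor gamma chain, were among these 15 although gamma-delta T cells had been removed by Trdc. Trgc1 was at 278 CPM in 21 innate cells and 7.28 CPM in 2 T cells, with 48.4% of the innate reads in 1 cell, and Trgc4 at 198 CPM in 22 and 3.43 CPM in 2. In gamma-delta T cells Trgc1 was at 770 CPM. A read of Trgc1 to Trgc4 was found in 37 of 91 innate members, 0 of 68 Foxp3+ T members and 6 of 58 other T members, against 84 of 130 gamma-delta T cells. Of these 37 innate members, 27 also had Arg1, Alox5, Kit or Il17rb, and 8 had a Cd3 gene or Cd4 at 50 CPM or more. The markers of ILC3 and Th17 cells summed to 130 CPM in innate members, and Il17a came from 1 cell. Il17f, Il22 and Il23r had no innate read. In gamma-delta T cells Il17a was at 374 CPM. The part of these cells in the innate levels was not tested.

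Innate members were mixed within themselves. At least 1 of Arg1, Alox5, Kit and Il17rb had a read in 52 of 91 innate members (57.1%, exact interval 46.3 to 67.5%), against 0 of 126 T members (upper limit 2.89%). Each of these 4 genes had no read in T members, so the T count follows from their choice and is no further result. Exactly 1 of the 4 genes was seen in 17 innate members, 2 in 22, 3 in 13 and all 4 in none. The same set had a read in 1 of 89 other alpha-beta T cells, 6 of 130 gamma-delta T cells and 7 of 48 NK cells. The 66 innate members without a Cd3 gene or Cd4 at 50 CPM held 31 cells with Arg1 and 24 with Kit, and the 25 with such a gene held 7 and 4. Of the 39 innate members with none of the 4 genes, 17 had a Cd3 gene or Cd4 at 50 CPM and 22 did not. Csf2 was at 504 CPM in the 66 cells and 7.86 CPM in the 25, and Lmo4 at 654 and 60.2 CPM. Gata3 was alike in both, at 611 CPM in the 66 and 571 CPM in the 25.

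Some products were found in the same innate cells. Arg1 was seen in 9 of the 16 cells with Csf2 and 8 of the 11 with Il5, against 38 of all 91 innate members, and 5 of the 11 cells with Il5 also had Csf2. A set of 9 secreted products was also counted: Il5, Il13, Il4, Csf2, Calca, Ccl1, Lif, Tnfsf11 and Areg. None of the 9 had a read in 38 of 91 innate members, 40 of 68 Foxp3+ and 38 of 58 other T members. At least 3 of them were seen in 13, 1 and 1 cells of these classes. Il10 was not in the set and had a read in 4 innate, 22 Foxp3+ and 8 other T members. A missing read at this depth does not show that a product was absent.

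**Figure D4:**
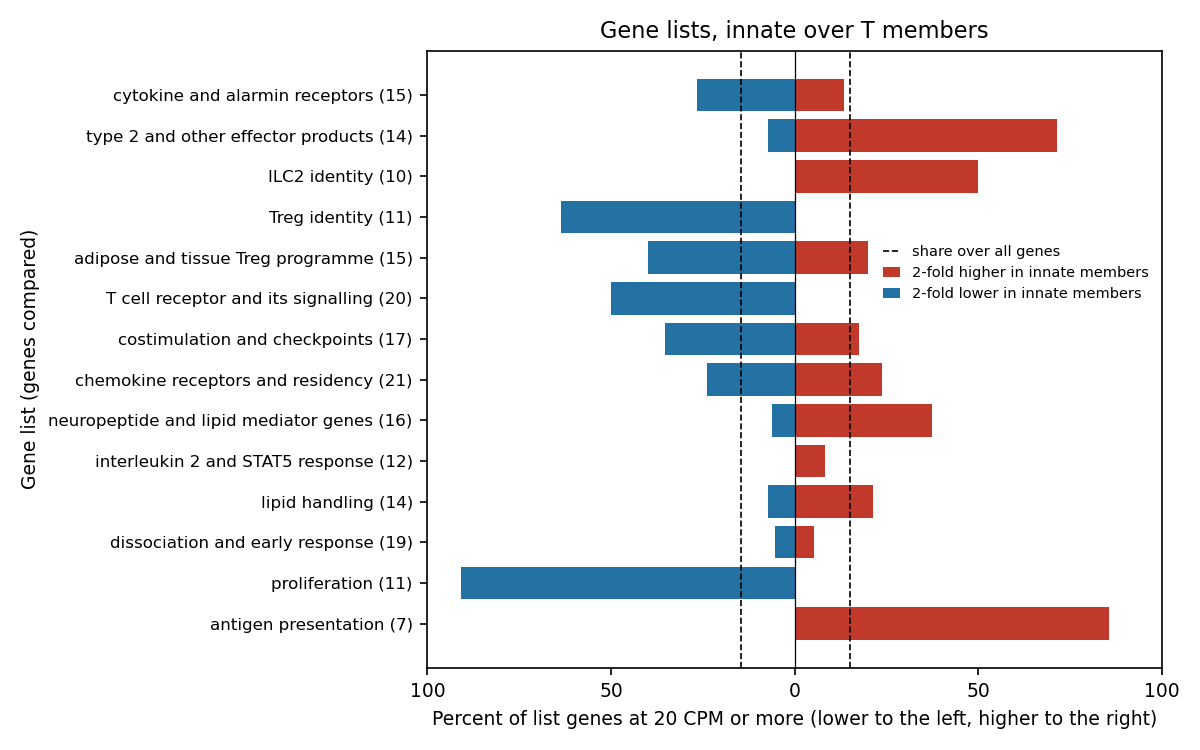
Percent of the genes compared in each of 14 lists that were 2-fold or more lower (left) or higher (right) in innate members than in T members, with the number compared in parentheses, leaving out the 6 genes of the rule and Trac. Dashed lines give the shares over all 7787 genes, 14.6% lower and 15.2% higher. Bars for effector products, ILC2 identity and antigen presentation reach past the line on the right, and those for Treg identity, T cell receptor and proliferation on the left.

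Regulatory and T cell receptor genes were lower in innate members than in T members. Of 11 Treg genes compared, 7 were 2-fold lower in innate members and none was higher, with a median ratio of 0.438. Tnfrsf4, the costimulatory receptor OX40, was at 108 CPM in 11 innate cells and 604 CPM in 63 T cells, 5.56-fold lower in innate members. Per population Tnfrsf4 was at 208, 78.0, 107, 0, 326 and 14.2 CPM in innate members of A0301, A0302, A0303, A0304, A0305 and A0307, against 646, 551, 634, 401, 860 and 665 CPM in T members. Tnfrsf9, which encodes 4-1BB, was at 26.9 CPM in innate and 187 CPM in T members, and Ikzf2, the transcription factor Helios, at 83.8 and 286 CPM. Tnfrsf18, which encodes GITR, differed by less than 2-fold, at 341 and 521 CPM.

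Of 20 T cell receptor genes, 10 were lower in innate members and none higher, with a median ratio of 0.501. Cd4 was at 12.2 CPM in 3 innate cells and 219 CPM in 50 T cells, and Cd5, an inhibitor of receptor signalling, at 60.6 CPM in 8 and 392.5 CPM in 61. Cd28, the main costimulatory receptor, was at 69.1 CPM in innate and 312.4 CPM in T members. Trbc2, a receptor beta constant gene, stayed within 2-fold, at 474 CPM in 59 innate cells and 759 CPM in 90 T cells. For costimulation and checkpoint genes, 3 of 17 were higher in innate members and 6 lower. Pdcd1, which encodes PD-1, was at 52.6 CPM in innate and 168 CPM in T members.

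Of 15 genes of the adipose and tissue Treg programme, 6 were lower in innate members. Another 3 (Bhlhe40, Ccr2 and Cd36) were higher, a count near that of all genes, and Cd36 turned to a log2 ratio of -0.042 without A0303 and -0.017 without the cells rich in MHC class II reads. Among its transcription factors, Irf4 was at 39.2 CPM in innate and 206 CPM in T members, Maf at 58.7 and 251 CPM, Batf at 50.8 and 139 CPM, and Prdm1 at 22.6 and 86.6 CPM. Maf and Irf4 were lower in innate members of 6 of 6 populations. Pparg, the adipose regulatory T cell factor PPAR gamma, was alike at 49.6 CPM in 10 innate cells and 51.4 CPM in 13 T cells. Cytokine receptors had 2 of 15 higher (Il17rb and Il18r1) and 4 lower (Il2rb, Il21r, Ifngr1 and Il6st). Ifngr1, a chain of the interferon gamma receptor, was at 383 CPM in innate and 849 CPM in T members, and Il7r, the interleukin 7 receptor, at 846 and 794 CPM. Outside the lists the 15 genes lowest in innate members relative to T members included Gpr174, a lysophosphatidylserine receptor gene (1.84 and 107 CPM), Slamf1 (7.34 and 91.3 CPM) and Frmd5 (43.4 and 275 CPM).

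The remaining lists showed small or few-cell differences. Of 12 interleukin 2 and STAT5 response genes only Bcl2, a survival gene, was past 2-fold, at 206 CPM in innate and 71.6 CPM in T members. Lipid handling genes had 3 of 14 higher and 1 lower, Plin2, a lipid droplet coat gene, at 116 and 326 CPM. Of 19 early response genes, which digestion can induce, Zfp36 was higher in innate members (2313 and 1072 CPM) and Hspa1b lower (3.67 and 26.1 CPM), and the other 17 were within 2-fold. Proliferation genes were lower for 10 of 11, but Mki67 was seen in 1 innate, 4 Foxp3+ T and 4 other T cells. Antigen presentation genes were higher for 6 of 7, yet 74.5 to 87.3% of the innate reads of H2-Aa, H2-Ab1, H2-Eb1 and Cd74 lay in 1 cell, and their sum reached 3000 CPM in 3 innate, 2 Foxp3+ T and 1 other T member.

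**Figure D5:**
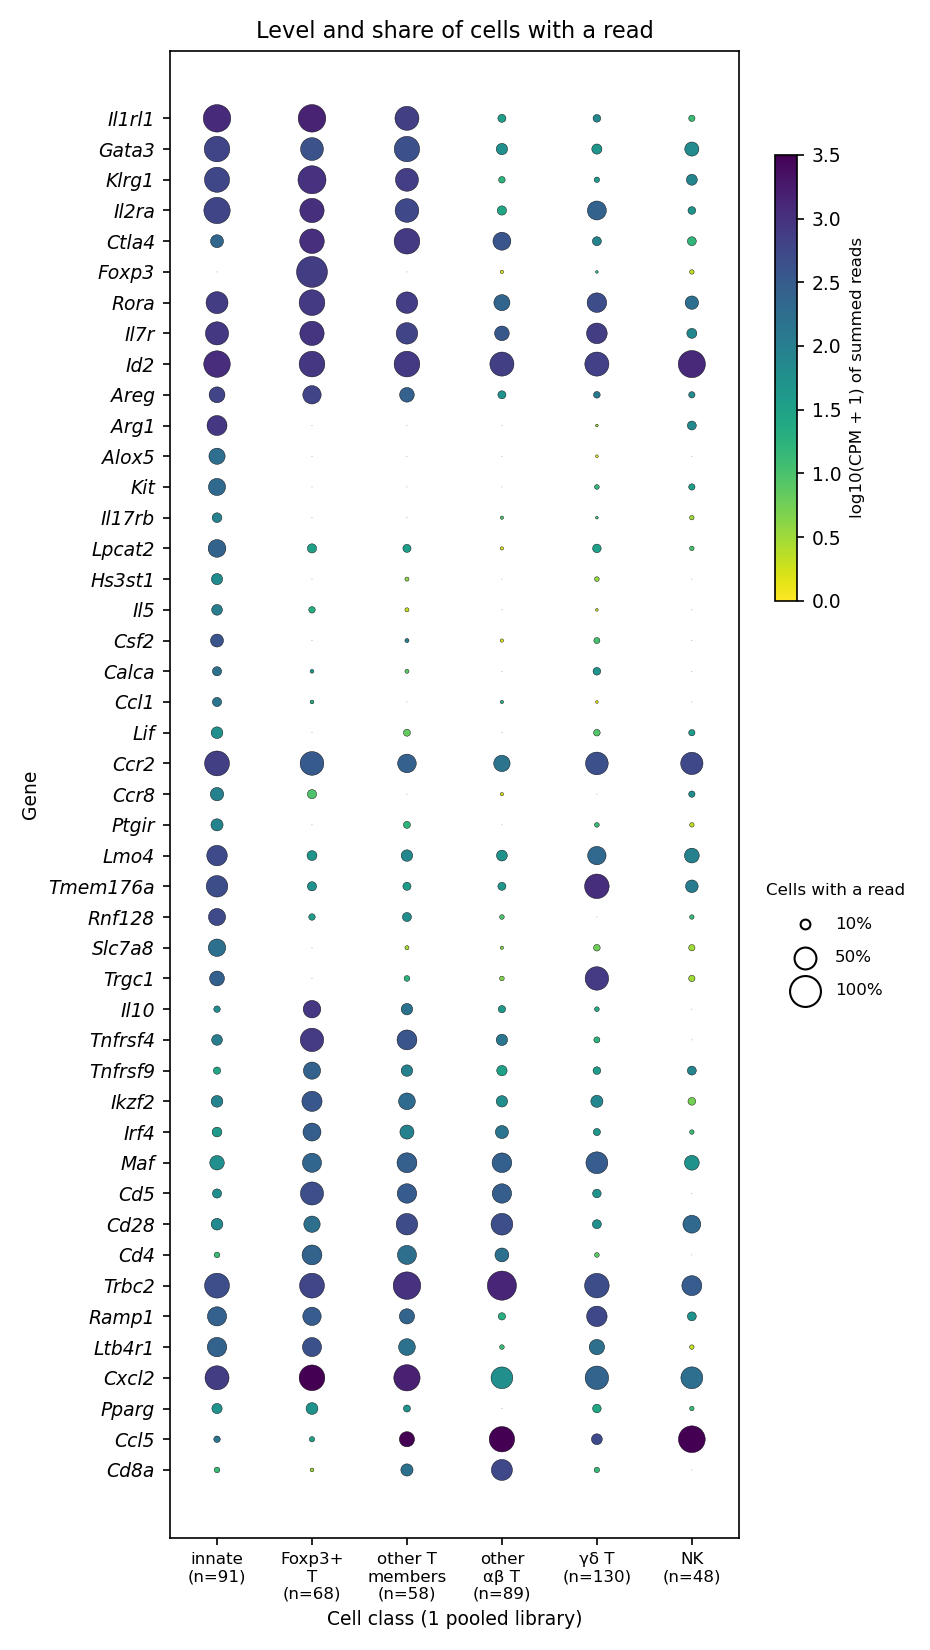
Levels of selected genes in 6 classes of cells of the 1 pooled library: innate, Foxp3+ T and other T members, then other alpha-beta T, gamma-delta T and NK cells. Colour gives log10 of CPM + 1 of the summed reads and the area of a dot the percent of cells with a read. Il1rl1 and Klrg1, genes of the rule, are dark in the 3 classes of members, and Arg1 and Alox5 in innate members. Ccl5 and Cd8a are dark in other alpha-beta T cells and were also read in other T members.

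Foxp3+ T members were next set beside other T members. Of 7658 genes compared, 1454 were 2-fold higher in Foxp3+ T members (19.0%) and 1422 lower (18.6%), with a median ratio of 0.984. Of 14 Treg genes outside the rule, 6 were higher and 2 lower, with a median ratio of 1.72. The 5 populations with at least 5 cells in both classes held 58 of 68 Foxp3+ and 36 of 58 other T members, and with the level taken as the mean over them, 23.4% of genes were higher and 22.9% lower. By these means only 2 of 13 Treg genes, Tnfrsf9 and Swap70, were higher. Tnfrsf4 was at 781 CPM in 39 Foxp3+ cells and 375 CPM in 24 other T cells (ratio 2.08), and Tnfrsf9 at 258 and 94.4 CPM. Izumo1r, the folate receptor 4 gene of regulatory T cells, was at 94.9 CPM in Foxp3+ and 31.5 CPM in other T members. Ctla4 (1071 and 816 CPM), Ikzf2 (355 and 197 CPM) and Tnfrsf18 (627 and 383 CPM) were within 2-fold.

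In the adipose programme 4 of 15 genes were higher in Foxp3+ T members (Irf4, Itgae, Il10 and Areg) and 2 lower (Prdm1 and Cd36). By the means over populations 7 were higher, these 4 with Batf, Nfil3 and Cd36, and Il10, Areg and Il9r were each higher in Foxp3+ T members of 5 of 5 populations. Il10 was at 887 CPM in 22 of 68 Foxp3+ cells and 153 CPM in 8 of 58 other T cells, a ratio of 5.75. Areg, a product by which tissue regulatory T cells promote repair, was at 633 CPM in 24 Foxp3+ cells and 264 CPM in 13 other T cells. Il10 and Areg were seen together in 9 Foxp3+ cells. Irf4 was at 292 CPM in Foxp3+ and 94.4 CPM in other T members, and Il9r, the interleukin 9 receptor, at 134 and 43.3 CPM. Pparg was alike at 50.9 and 52.1 CPM, as were Batf at 140 and 138 CPM.

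Cytotoxic genes were low or at 0 in Foxp3+ T members relative to other T members. The 4 CD8 T cell markers were lower in Foxp3+ T members for 4 of 4, the NK and ILC1 markers for 7 of 7 and the Th1 markers for 3 of 3. By the means over the 5 populations these were 4 of 4, 4 of 4 and 0 of 2, with Cxcr3 2-fold higher. Ccl5 was at 31.1 CPM in 2 Foxp3+ cells and 3175 CPM in 14 other T cells, Cd8a at 2.28 CPM in 1 and 167 CPM in 9, and Eomes, a transcription factor of cytotoxic lymphocytes, at 0 and 96.4 CPM in 9 cells. Within the 5 populations Ccl5 and Cd8a were read in other T members of 1 population and in no Foxp3+ T member. Tcf7, a factor of naive and memory T cells, had no Foxp3+ read and was at 157 CPM in 10 other T cells, at least 69.1-fold lower in Foxp3+ T members. Bcl2 was at 6.07 and 156 CPM. Cd4 without Cd8a or Cd8b1 was seen in 22 Foxp3+ and 21 other T members, and Cd8a or Cd8b1 without Cd4 in 2 and 12. Both Cd4 and a Cd8 gene were seen in 6 Foxp3+ and 1 other T member, and 38 Foxp3+ and 24 other T members had no read of the 3 genes. Proliferation genes were higher for 7 of 12, and Mki67 was seen in 4 cells of each class.

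The 217 members were last set beside 89 other alpha-beta T cells, which had Trac and Cd3e at 50 CPM or more and failed the rule. Of 7782 genes, 1030 were 2-fold higher in members (13.2%) and 1065 lower (13.7%), with a median ratio of 0.938. The classes came from different populations: A0308, A0309 and A0310 held 26 of 217 members and 61 of 89 other alpha-beta T cells. The level was therefore also taken as the mean over the 5 populations with at least 5 cells in both classes (A0304, A0305, A0308, A0309 and A0310), an alternative chosen after seeing the data, by which 17.5% of genes were higher and 20.2% lower. Of the 1030 higher genes 534 were also 2-fold higher by these means, and of the 1065 lower ones 663 were lower. Leaving out the genes that chose the classes, ILC2 genes were higher for 7 of 9 (4 of 7 by the means), effector products for 9 of 11 (5 of 9) and Treg genes for 7 of 11 with 2 lower (8 of 12 with none lower). The adipose programme was higher for 6 of 14 with none lower and a median ratio of 1.32 (6 of 14 and 1.95 by the means). Rora, the nuclear receptor ROR alpha, was at 763 CPM in members and 235 CPM in other alpha-beta T cells, Pparg at 50.7 CPM in 23 members against no read, and Areg at 534 and 51.4 CPM. Rora was higher in members of 4 of 5 populations, with a ratio of 1.73 by the means, and Pparg in 3, with no read in either class of the other two. Areg was higher in 3 and lower in 2: it had no read in the members of A0309 and A0310, against 93.2 and 47.8 CPM in their other alpha-beta T cells. Cxcr6, a receptor of tissue-resident lymphocytes, was at 257 and 78.0 CPM and was higher in members of 4 of 5 populations. The interleukin 2 response gene Cish, a suppressor of STAT5 signalling, was at 427 CPM in 118 members and 141 CPM in 23 other alpha-beta T cells, 1 of 4 genes of that list that were higher, with 1 of 12 lower, but it was higher in members of only 2 of 5 populations, with a ratio of 1.33 by the means. Cd3e was part of how the other T cells were chosen, so its lower level in members, 125 and 703 CPM, is no result.

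Receptors for neuropeptides and lipid mediators were higher in members for 8 of 13 and lower for none, and by the means over populations for 6 of 12 with 1 lower. Ramp1 was at 271 CPM in 73 of 217 members and 18.7 CPM in 5 of 89 other alpha-beta T cells (ratio 13.8), and the leukotriene receptor gene Cysltr1 at 42.1 CPM in 18 members and 0.605 CPM, or 1 read, in 1 cell. Both were higher in members of 4 of 5 populations, with ratios of 5.62 and 13.3 by the means. Outside the lists, the leukotriene B4 receptor gene Ltb4r1 was at 286 CPM in 79 members, with 256 CPM in innate, 426 CPM in Foxp3+ and 151 CPM in other T members, and at 12.1 CPM in 2 other alpha-beta T cells. It was above them in 4 of 5 populations with 5 cells in both classes and had no read in either class of the fifth. Frmd5, a FERM domain gene, was at 180 CPM and 1.21 CPM, and Neb, the nebulin gene, at 188 CPM in 50 members and 8.47 CPM in 3. Cxcl2, a neutrophil chemokine, was at 1717 CPM in members and 55.6 CPM in other alpha-beta T cells, but with a read in 20.7% of thinned fibroblasts against 49.5% of thinned innate members and 27.0% of thinned other alpha-beta T cells. Hilpda, a lipid droplet protein gene, was at 400.4 CPM in 68 members and 66.5 CPM in 15 other alpha-beta T cells, and was at 496 CPM in innate and 334 CPM in T members. Cxcl2 and Hilpda were each higher in members of 4 of 5 populations, and Frmd5 and Neb in 3 with none lower. Lipid handling genes were higher in members for 6 of 13 and lower for none (7 of 13 by the means), among them Dgat1, a triglyceride synthesis enzyme, at 243 and 90.1 CPM.

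Whether T cell genes were lower in members depended on how populations were weighted. All 4 CD8 markers and all 3 Th1 markers were 2-fold lower over all cells, and none of the 4 and none of the 3 by the means over the 5 populations. Outside Trac and Cd3e, 9 of 19 T cell receptor genes were lower over all cells and 3 of 19 (Cd3d, Cd247 and Tcf7) by the means. Of the 217 members, 91 were innate members, chosen without Trac, and all other alpha-beta T cells were chosen with Trac and Cd3e. Lower T cell receptor genes in members were thus in part fixed by how the classes were chosen. Naive T cell genes were lower for 3 of 4 over all cells and 3 of 3 by the means. Nkg7, a granule protein gene, was at 246 CPM in members and 1532 CPM in other alpha-beta T cells, lower in members of 5 of 5 populations but within 2-fold by the means (800.4 and 1415 CPM). Ms4a4b was at 112 CPM in members and 924 CPM in other alpha-beta T cells and was also lower in 5 of 5 populations, with a ratio of 0.333 by the means. The largest ratios outside the lists also included Slfn1, at 2.77 CPM in 3 members and 119 CPM in 18 other alpha-beta T cells, lower in 5 of 5 populations. Of 19 early response genes 11 were higher in members and 1 lower, with a median ratio of 2.27, and 4 were higher and 1 lower by the means, with a median ratio of 1.49. Fos was at 3813 CPM in members and 1634 CPM in other alpha-beta T cells, and Nr4a1, which receptor signalling also induces, at 1763 and 602 CPM. The part of cell handling in the other differences was not tested.

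Levels in NK and gamma-delta T cells are given side by side only. Il1rl1 was at 1164 CPM in members, 11.8 CPM in NK cells and 71.8 CPM in gamma-delta T cells, and Gata3 at 496, 67.8 and 46.0 CPM. Il1rl1, Gata3 and Il2ra are genes of the rule, so their higher levels in members are no result. Arg1 was at 367 CPM in members, 71.1 CPM in 4 NK cells and 2.71 CPM in 1 gamma-delta T cell. Il2ra and Ramp1 were also present in gamma-delta T cells, at 246 and 542 CPM, beside 728 and 271 CPM in members. Ccr2 was at 472 CPM in members, 558 CPM in NK cells and 438 CPM in gamma-delta T cells, and Tmem176a at 227, 109 and 1088 CPM. Areg, at 534 CPM in members, was at 67.8 and 120 CPM.

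Positions from GENCODE M21 (GRCm38) for the genes that most of these results turn on are Il1rl1 at chr1:40429570-40465415, Gata3 at chr2:9857078-9890034, Foxp3 at chrX:7573644-7595245 and Arg1 at chr10:24915221-24927484. Kit lies at chr5:75574916-75656722, Alox5 at chr6:116410077-116461178, Il5 at chr11:53720794-53725106, Il10 at chr1:131019845-131024974 and Ctla4 at chr1:60887000-60915832. The counts are per gene and do not separate exons.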

How the data were processed

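The authors deposited whole-number counts per gene and cell, and hashtag counts per cell, from 1 pooled library of epididymal fat cells of mice on a high-fat or standard diet. Reads had been handled with cutadapt 2.10, Bowtie2 2.4.2 and R 3.6.3 on GRCm38, per the submitters' processing notes. The counts are read as reads, since no collapse of molecular identifiers is given in the sources used here, so intervals cover counting error only; in 31 of 220 genes of the read-out lists the lowest value above 0 exceeds 1, so low values are missing there.

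Cells called as a hashtag doublet by the authors (278) and cells with over 25% mitochondrial reads (1229) were left out; Scrublet calls were counted and not removed. Reads of each class were summed, scaled to CPM and compared as ratios of CPM + 1, with 20 CPM in 1 class and a 2-fold difference as limits. Cells of 1 library are not replicates, so no test was made. A gene with no read in a class is set at 3 reads over that class. That floor may be too low for a gene whose low values are missing. Shares carry exact Clopper-Pearson 95% intervals. Other alpha-beta T cells had Trac and Cd3e, NK cells Ncr1 without Trac, gamma-delta T cells Trdc, and fibroblasts Pdgfra and Lum without Ptprc, each at 50 CPM. Python 3.11.15, pandas 2.3.3, scipy 1.17.1 and scanpy 1.11.5 were used, and the ratio step was tested on simulated data. The members, 14 gene lists and 22 marker lists were chosen with earlier results of these data known. Named were the genes of the rule, up to 6 genes of highest CPM per list and any needed for a count of 5 or fewer, and outside the lists the 15 of largest ratio in each direction. A few genes of these lists count in the totals and are not reported here by name. Others were chosen after their values were seen, including those named between Foxp3+ and other T members. Alternatives changed each limit of the rule, the scaling, the minimum level, the cells and the hashtag populations used; the mean over populations was added after seeing the data.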

Additional observations from a re-analysis of the deposited data

How the results depend on the processing

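No paired analysis was possible because 1 pooled library holds no replicate of a labelled group; classes of the same hashtag population were set side by side without a test. The count of members moved most with the rule: they were 2.06% of kept cells as reported, 1.36% (143 cells) when 3 of the 6 genes were needed and 1.45% (153 cells) when markers of other cells had to stay under 100 CPM. The innate share of members was 41.9% as reported, 35.0% (50 of 143) with 3 of 6 genes and 34.4% (66 of 192) when innate members also lacked Cd3d, Cd3e, Cd3g and Cd4. With at least 50 CPM, 463 genes were higher and 479 lower in innate members of 4252, and 412 were higher and 503 lower in members than in other alpha-beta T cells of 4352; fewer genes were compared there. A further alternative, chosen after seeing the data, left out the cell of most reads for each gene. It gave 811 genes higher and 1162 lower in innate members of 6306, against 1182 and 1139 as reported. Of the 1182 higher genes, 695 stayed higher. In members against other alpha-beta T cells, 1221 genes were higher and 669 lower of 6567, against 1030 and 1065 as reported. The cause was not tested. Leaving out each hashtag population in turn gave member shares of 1.87 to 2.33% and innate shares of 39.1 to 43.8%. It gave 1200 to 1326 genes higher and 1145 to 1305 lower in innate members, and 1019 to 1228 higher and 1107 to 1325 lower in members than in other alpha-beta T cells. Of 2652 values of the named genes for innate over T members under all alternatives, 2515 kept their direction and side of the 2-fold limit, 109 fell within it, 18 passed it, 1 moved and 9 turned round. For members over other alpha-beta T cells these were 1865 of 1978, with 68, 35, 2 and 8. Those that turned round are given as log2 ratios. In innate over T members, with the 6 genes at 200 CPM, Cd74 was at -0.29, H2-Aa at -0.15 and H2-Eb1 at -0.65, and H2-Eb1 was at -0.62 with 3 of 6 genes, -0.37 without cells rich in MHC class II reads and -0.098 without its top cell. Cd36 was at -0.017 without the cells rich in MHC class II reads. Leaving out 1 population gave -0.042 to 2.42 for Cd36 and -0.12 to 2.04 for H2-Eb1. In members over other alpha-beta T cells, with the 6 genes at 200 CPM, Cd74 was at -0.38, H2-Aa at -0.23 and H2-Ab1 at -0.36, and with 3 of 6 genes Cd74 was at -0.19 and H2-Aa at -0.048. By the means over populations, chosen after seeing the data, Ccl1 was at -0.21, H2-Aa at -0.15 and Il17rb at -0.59; the innate over T counts were 1307 higher and 1236 lower, sharing 958 and 943 genes with those over all cells. Depth limits what a missing read shows: at a median of 15754 reads per member, a gene at 0 in a cell may still be expressed.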

Other observations

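Ccr3, the eotaxin receptor gene of eosinophils, was found in T members. It was at 4.89 CPM in 3 innate cells and 52.3 CPM in 11 T cells, 8 of them Foxp3+, while the list of eosinophil markers held no other gene past 20 CPM in these classes. All 14 cells lay in A0301, A0302 and A0303. The 89 other alpha-beta T cells had no Ccr3 read, but only 7 of them came from these 3 populations.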
